A study of Rattus norvegicus with 10 samples.

Results

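The receptors that bind the constant part of antibodies and the NADPH oxidase of phagocytes were followed in the supraoptic nucleus, the paired hypothalamic nucleus of the magnocellular vasopressin and oxytocin neurons. The set held 9 transcripts of the 32623 genes in the deposited table, each found by its gene name: Fcgr1a, Fcgr2a, Fcgr2b, Fcgr3a, Fcer1g, Cybb, Cyba, Ncf1 and Ncf4. All 9 passed the filter on low values that left 15597 genes for testing. The tissue came from male Sprague-Dawley rats of 250 to 300 g. One nucleus of each rat had received an adeno-associated virus coding for a short hairpin RNA against Opn3 (shOpn3), and the nucleus of the other side a virus with a non-targeting hairpin (shControl). Each group had 5 samples, taken 2 weeks after the viruses as 1 mm punches from 100 µm sections, so both groups had been injected and had received virus. The cells that took up the virus, its promoter and the side of each hairpin were not given in the sources used here, and no uninjected nucleus was analysed here.

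Fc gamma receptors bind immunoglobulin G on opsonised targets. Fcgr1a, Fcgr2a and Fcgr3a encode activating receptors, which signal through the common gamma chain encoded by Fcer1g, whereas Fcgr2b encodes the inhibitory receptor, which carries its own inhibitory motif. The phagocyte oxidase makes superoxide. Its membrane part is the heterodimer of the Cybb and Cyba products, and cytosolic proteins, among them the Ncf1 and Ncf4 products and a Rac GTPase, join it from the cytosol upon activation. In the brain microglia are the main cells known to make these proteins, and macrophages and neutrophils make them elsewhere. Rat names differ from those of other species: RefSeq lists Fcgr3, Fcgr3a and fc-gamma RIII among the synonyms of rat Fcgr2a, and Fcgr4 and CD16-2 among those of rat Fcgr3a. It also lists a like-named gene, Fcgr2al1, and a pseudogene, Fcgr2a-ps1, so reads of Fcgr2a may be shared with near copies and its counts are uncertain. The Fc gamma receptors are similar to each other in sequence too, and how shared reads were handled is not given in the sources used here.

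The libraries held 33158341 to 39958578 reads, with overlapping ranges in both groups. Opn3 checked the labels: it had 261 to 1007 normalized counts in shControl and 145 to 289.7 in shOpn3, with shControl replicate 5 as the lowest control, inside the shOpn3 range (log2 fold change -1.82, SE 0.320, adjusted p by limma = 0.00226). The 5 magnocellular markers examined, among them Avp and Oxt, were present in every sample and fell, with a log2 fold change between -2.35 and -1.03. Normalized counts are reads divided by 1 size factor per sample, and a transcript is called here where limma's adjusted p, taken over all genes tested, was under 0.05.

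Of the 9 transcripts, 7 rose in shOpn3, 0 fell and 2 did not pass the test (Fcgr2a and Cyba). Among all genes tested 18.8% were called, 10.4% as higher and 8.48% as lower. Their median log2 fold change was 1.26, a 2.40-fold difference, against -0.02 for all genes tested. No overlap between the groups was seen in 6 of the 9 transcripts (8.03% of all genes tested were higher without overlap), and 8 of the 9 were higher in every same-numbered pair (18.7% of all genes tested). When the model held the replicate number as a block, 8 of the 9 were called and Cyba was the exception, and of all genes tested 15.1% were higher and 15.2% lower (30.3% in all). On recovered reads, edgeR called 7 of the 9 (19.4% of all genes tested) and DESeq2 8 of the 9 (21.3%). In the authors' deposited table Cyba was likewise the one transcript of the 9 with an adjusted p over 0.05 (0.146). The set was chosen with results of these data known, so these counts describe it and are no independent evidence of its direction. In a punch of tissue, more cells of a type and more RNA per cell cannot be told apart.

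**Figure D1:**
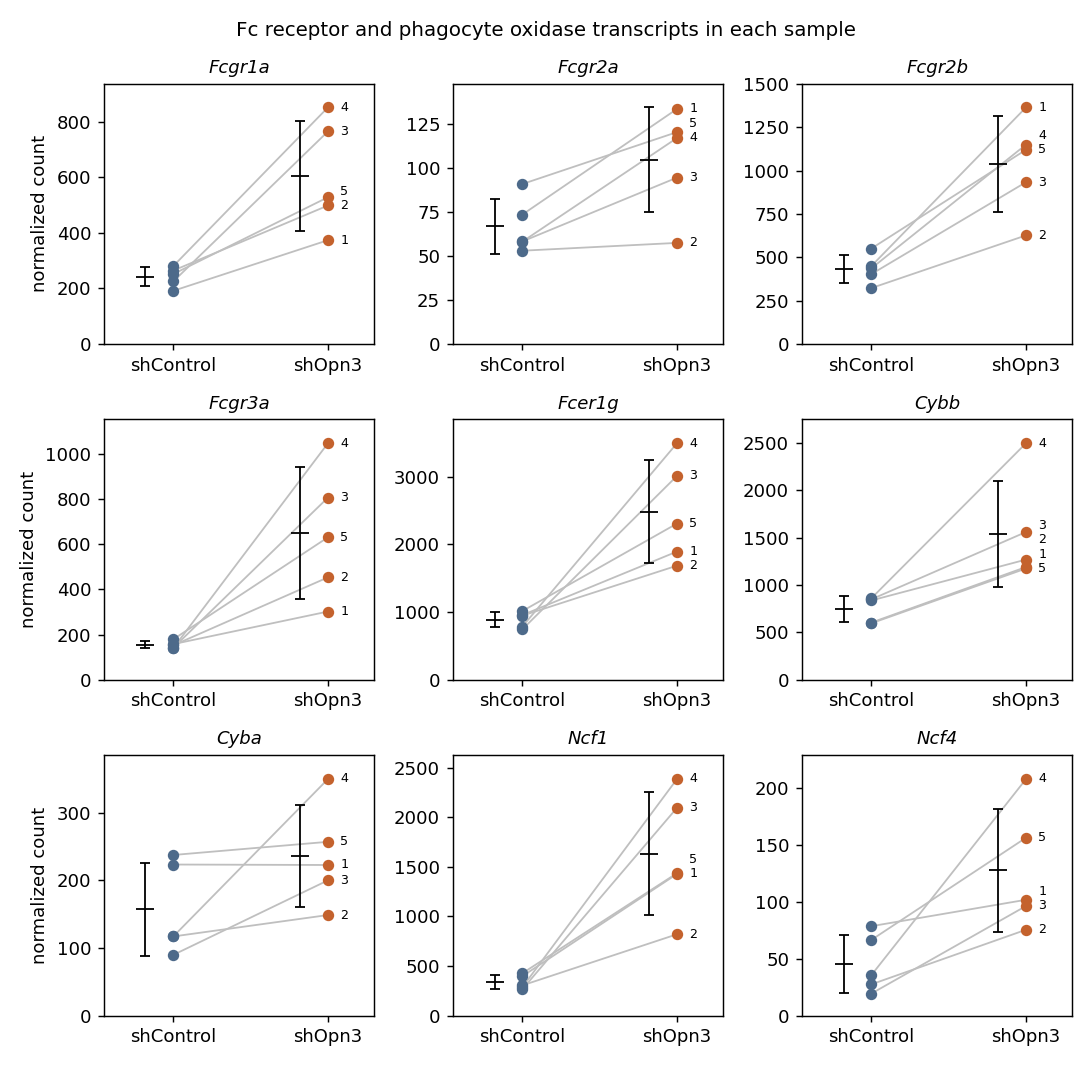
Normalized counts (y axis, linear, from 0) of the 9 transcripts in 5 shControl and 5 shOpn3 samples; grey lines join samples with the same replicate number, the numbers beside the right points are the replicate numbers, and black bars show mean ± SD. Ncf1 ran from 266 to 427 in shControl and from 821 to 2387 in shOpn3, whereas the Cyba groups overlapped (89.8 to 237 and 149 to 349.7).

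RefSeq promoter sequences (assembly GRCr8) were at hand for 5 of the 9 genes: Fcgr2a, Fcgr3a, Cybb, Cyba and Ncf1. The 250 bases before the annotated start of 4 of them are printed here 5′ to 3′ on the gene's strand, to show 3 transcripts that rose beside 1 that did not pass the test. Capitals mark matches, on either strand, to the core of the ETS factor PU.1 (GAGGAA) and to the interferon-stimulated response element (GAAA, 2 bases of any kind, GAAA). These motifs were chosen after the sequences had been seen.
Cybb (chrX:16065066-16065315, minus strand): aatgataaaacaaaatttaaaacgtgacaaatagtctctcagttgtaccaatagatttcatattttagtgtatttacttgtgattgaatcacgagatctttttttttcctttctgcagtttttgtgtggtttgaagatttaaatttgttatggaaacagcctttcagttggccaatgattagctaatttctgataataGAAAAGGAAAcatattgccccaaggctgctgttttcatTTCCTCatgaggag
Fcgr3a (chr13:85782386-85782635, plus strand): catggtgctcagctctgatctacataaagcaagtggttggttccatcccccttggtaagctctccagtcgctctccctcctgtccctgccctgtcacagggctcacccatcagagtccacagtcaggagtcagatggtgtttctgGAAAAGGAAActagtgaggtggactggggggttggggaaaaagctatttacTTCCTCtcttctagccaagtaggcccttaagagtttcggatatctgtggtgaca
Ncf1 (chr12:28121635-28121884, plus strand): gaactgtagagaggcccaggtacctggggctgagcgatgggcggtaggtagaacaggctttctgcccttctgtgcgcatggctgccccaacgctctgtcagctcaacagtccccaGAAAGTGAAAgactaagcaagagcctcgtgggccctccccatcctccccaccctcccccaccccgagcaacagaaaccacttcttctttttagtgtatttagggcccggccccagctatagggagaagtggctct
Cyba (chr19:67404215-67404464, minus strand): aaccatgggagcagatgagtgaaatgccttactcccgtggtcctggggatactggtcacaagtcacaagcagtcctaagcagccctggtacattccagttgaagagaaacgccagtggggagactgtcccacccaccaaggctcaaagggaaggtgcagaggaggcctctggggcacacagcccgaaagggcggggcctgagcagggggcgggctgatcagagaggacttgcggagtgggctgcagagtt
The response element was matched in Cybb, Fcgr3a and Ncf1 and in neither Cyba nor Fcgr2a. Over 33469 such windows of 250 bases 3.41% held it. The PU.1 core was matched in Cybb, Fcgr3a and Fcgr2a, and 23.3% of all windows held it. Fcgr2a had a further annotated start, whose window held no match to the core, so the 5 genes had 6 windows. The gamma-activated site (TTCNNNGAA, held by 7.67% of windows), was matched in 0 of the 5 genes. In Cybb the PU.1 core began 14 bases and the response element 52 bases before the start, and in Fcgr3a 54 and 105 bases before it. The matches do not overlap each other. They describe letters in these windows and show no binding.

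Among the activating receptors, Fcgr3a, whose product binds immunoglobulin G complexes with low to intermediate affinity, rose most. Its normalized counts were 158, 153, 142, 140.4 and 179 in shControl replicates 1 to 5, and 302, 454, 806, 1047 and 631 in shOpn3 replicates 1 to 5. The controls lay close together, and every shOpn3 sample lay above them, with replicates 3 and 4 highest. This was a 3.83-fold difference, or 1.94 as log2 (SE 0.271; adjusted p by limma = 0.000682; p = 0.00794 in an exact permutation test over samples, two-sided). That is the smallest p that 5 against 5 samples allow when the pairing is left aside; within 5 pairs no such test could go below 0.0625. The promoter printed above for Fcgr3a was matched to this transcript by gene name alone.

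Fcgr1a encodes the high-affinity receptor for immunoglobulin G. It had 192, 265, 226, 281 and 252.1 normalized counts in shControl and 374, 499, 766, 853 and 529 in shOpn3, in the order of the replicate numbers. The groups did not overlap, and replicate 1 was lowest in both. The difference as log2 was 1.26 (SE 0.206, 2.40-fold; adjusted p by limma = 0.00149; exact permutation p = 0.00794).

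Fcgr2a was present at fewer reads, with 73.4, 52.9, 58.2, 58.0 and 90.7 normalized counts in shControl and 133, 57.4, 94.4, 117 and 120.2 in shOpn3. It was higher in shOpn3 in all 5 pairs, by 1.08- to 2.01-fold, but shOpn3 replicate 2 lay within the control range. Its log2 fold change of 0.61 (SE 0.236) did not pass the test (adjusted p by limma = 0.0948), and the exact permutation p was 0.0476. It passed once the replicate number entered as a block (adjusted p by limma = 0.0212) and without shOpn3 replicate 2 (log2 fold change 0.81, adjusted p by limma = 0.0142). In the authors' deposited table its adjusted p was 0.0355.

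The common gamma chain Fcer1g, which carries the activation motif for these receptors, had 955, 947, 745, 786 and 1015 normalized counts in shControl and 1894, 1686, 3011, 3494 and 2307 in shOpn3. Every shOpn3 sample exceeded every control. As log2 the difference was 1.43 (SE 0.183, 2.70-fold; adjusted p by limma = 0.000453; exact permutation p = 0.00794).

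The inhibitory receptor Fcgr2b rose as well. It had 449.6, 323, 403, 436 and 551 normalized counts in shControl and 1365, 627, 934, 1150.4 and 1121 in shOpn3. The groups did not overlap, and here shOpn3 replicate 1 was highest, unlike in Fcgr1a and Fcgr3a, where it was lowest. It rose by 1.24 as log2 (SE 0.196, 2.36-fold; adjusted p by limma = 0.00125; exact permutation p = 0.00794).

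Counts of different genes were not scaled by length, so only the change of a ratio between them can be read. The ratio of Fcgr2b to Fcgr2a was 6.07 to 7.52 in shControl and 9.32 to 10.9 in shOpn3, without overlap and higher in 5 of 5 pairs. The ratio of Fcgr2b to Fcgr3a was 2.11 to 3.11 in shControl and 1.10 to 4.52 in shOpn3, lower in 4 of 5 pairs and higher in pair 1. Its mean log2 change was -0.71. The ratio of Fcgr2b to Fcgr1a changed by -0.02 on the log2 scale, with 2 pairs higher and 3 lower. These ratios were not tested, and the first rests on the uncertain counts of Fcgr2a.

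In the oxidase, the organiser subunit Ncf1 (p47phox) rose most of all 9 transcripts. It had 398, 305, 266, 287 and 427 normalized counts in shControl and 1429, 821, 2097, 2387 and 1437 in shOpn3. The lowest shOpn3 sample, replicate 2, still lay above the highest control. The log2 fold change was 2.21 (SE 0.251, 4.62-fold; adjusted p by limma = 0.000306; exact permutation p = 0.00794), with same-numbered ratios from 2.69 to 8.30.

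Ncf4 (p40phox), the subunit that binds a phosphoinositide of the phagosome membrane, was scarce, with 78.5, 27.5, 19.4, 35.6 and 66.5 normalized counts in shControl and 102, 75.4, 96.3, 208 and 156 in shOpn3. Control replicates 1 and 5 stood high, and shOpn3 replicate 2 lay just below control replicate 1, so that the groups overlapped. It rose by 1.56 on the log2 scale (SE 0.385, 2.94-fold; adjusted p by limma = 0.0144; exact permutation p = 0.0159) and was higher in 5 of 5 pairs.

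The membrane part of the enzyme rose less or did not pass the test. Cybb (gp91phox, NOX2), the catalytic subunit, had 605, 838, 850.1, 861 and 597 normalized counts in shControl and 1192, 1270.2, 1562, 2499.8 and 1176 in shOpn3. The groups did not overlap, and shOpn3 replicate 4 stood well above the other 4. On the log2 scale it rose by 0.99 (SE 0.202, 1.99-fold; adjusted p by limma = 0.00505; exact permutation p = 0.00794).

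Cyba (p22phox), which stabilises the catalytic subunit and is also made by many other cells, had 223, 117, 89.8, 117 and 237 normalized counts in shControl. In shOpn3 it had 223, 149, 200.0, 349.7 and 257. Control replicates 1 and 5 lay well above the other controls and pairs 1 and 5 hardly differed between the hairpins, whereas pairs 3 and 4 differed by 2.23- and 2.99-fold. The log2 fold change of 0.63 (SE 0.292) did not pass the test (adjusted p by limma = 0.157; exact permutation p = 0.103), nor once the block was added (adjusted p by limma = 0.0726).

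Within the enzyme the log2 fold changes ran from 0.63 for Cyba to 2.21 for Ncf1. The ratio of Ncf1 to Cybb was 0.313 to 0.716 in shControl and 0.646 to 1.34 in shOpn3, and it was higher in 5 of 5 pairs, with a mean log2 change of 1.22. The ratio of Cybb to Cyba overlapped widely, at 2.52 to 9.47 and 4.58 to 8.54, and was higher in 3 of 5 pairs. None of these ratios was tested.

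The size of the difference varied from pair to pair. The median log2 difference of the 9 transcripts between same-numbered samples was 0.96 in pair 1, 0.91 in pair 2, 1.76 in pair 3, 1.60 in pair 4 and 1.07 in pair 5. Pair 4 gave the largest difference for 7 of the 9 transcripts, and pair 2 the smallest for 6. Fcgr2b was largest in pair 1 (1.60), and Fcgr3a, Cyba and Ncf4 were smallest there. Within shOpn3, replicate 4 was the highest sample for 7 transcripts and replicate 2 the lowest for 6. Within shControl, replicate 5 was the highest for 6. Leaving out shControl replicate 5, whose Opn3 was low, left 7 of the 9 called. By the root mean square difference of their 5 pair differences, Fcgr1a and Fcer1g were the most alike (0.279 on the log2 scale) and Fcgr2a and Ncf1 the least (1.67).

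**Figure D2:**
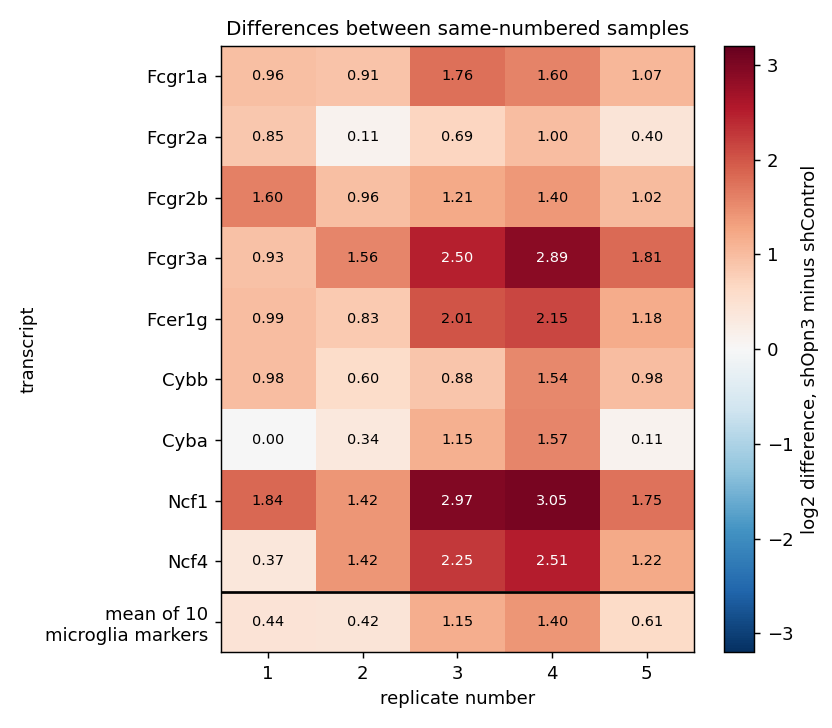
Log2 differences between shOpn3 and shControl samples of the same replicate number (columns) for the 9 transcripts and for the mean of 10 microglia markers (bottom row); red is higher in shOpn3. Pairs 3 and 4 are darkest in Ncf1 (2.97 and 3.05) and Fcgr3a (2.50 and 2.89) and highest in the microglia row (1.15 and 1.40), while Cyba is near 0 in pairs 1 and 5.

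Markers of microglia moved in the same direction. Of 10 microglia markers 7 rose, 0 fell and 3 did not pass the test (Tmem119, Sall1 and Olfml3), with a median log2 fold change of 0.91. Their summed normalized counts were 16785 to 20259.7 in shControl and 24912 to 45498 in shOpn3. The mean log2 value of the list was 0.80 higher in shOpn3, by 0.44, 0.42, 1.15, 1.40 and 0.61 in pairs 1 to 5, so pairs 3 and 4 were the largest here as well.

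To compare each transcript with these markers, the mean log2 value of the list was subtracted from every gene in every sample and the fit across all genes was repeated. Of all genes tested 2.15% were then called higher and 82% lower (84.1% in all), as the shift of the markers was taken from every gene. With so many genes called, an adjusted p near 0.05 lay close to the unadjusted p in this fit. The threshold was thus weaker here than in the fit without the subtraction. Relative to the markers 5 of the 9 transcripts were higher in shOpn3 and 0 lower. Ncf1 was higher by 1.40 (SE 0.185, adjusted p by limma = 4.16e-06) and Fcgr3a by 1.13 (SE 0.201, adjusted p by limma = 8.05e-05). Fcer1g was higher by 0.63 (SE 0.166, adjusted p by limma = 0.00163). In these 3 the relative values of the groups did not overlap, and they were higher in 5 of 5 pairs.

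Ncf4 (0.75, SE 0.289, adjusted p by limma = 0.0198) and Fcgr1a (0.46, SE 0.192, adjusted p by limma = 0.0315) also passed relative to the markers, with overlap between the groups. For Ncf4 and Fcgr1a the adjusted p was little above the unadjusted p, so these calls are hardly corrected for the number of genes tested. Fcgr1a lost the call without any one of shControl replicates 1 and 5 and shOpn3 replicates 2 and 3 (adjusted p by limma from 0.0548 to 0.112). Ncf4 lost it without shControl replicate 2 or 3 or shOpn3 replicate 5 (adjusted p by limma from 0.0586 to 0.0750). Fcgr2b was at 0.43 (SE 0.205, adjusted p by limma = 0.0533) and passed when the replicate block was added (adjusted p by limma = 0.0491; 2.4% of all genes tested were then called higher). The call of Fcgr2b with the block was likewise hardly corrected for the number of genes tested. Fcgr2a (-0.19, SE 0.233), Cybb (0.19, SE 0.202) and Cyba (-0.17, SE 0.223) did not pass, with adjusted p by limma from 0.378 to 0.476. With Csf1r alone as the reference, 2 of the 9 were called, Fcgr3a and Ncf1, where 1.18% of all genes tested were called higher.

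**Figure D3:**
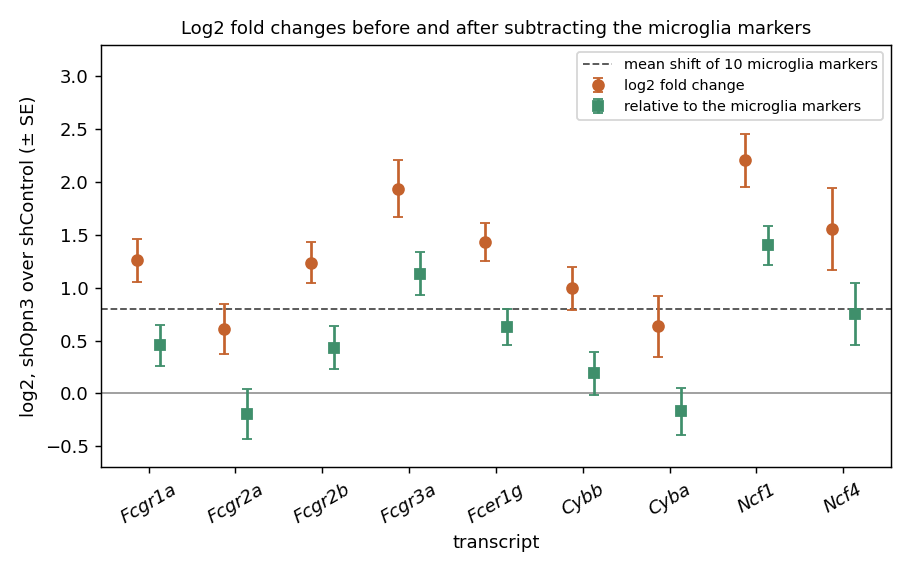
Log2 fold changes (circles) and log2 fold changes relative to the mean of 10 microglia markers (squares) of the 9 transcripts, each ± SE from limma with 5 samples a group; the dashed line is the shift of the markers themselves (0.80). Ncf1 and Fcgr3a remain highest after the subtraction (1.40 and 1.13), and Fcgr2a and Cyba lie slightly below 0.

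Markers of other cells that can make these proteins were sparser. Beside the counts of calls in these lists stands the share of all genes tested that were called, 18.8%. Of 6 perivascular macrophage markers 1 was called, Mrc1, with a log2 fold change of 0.54 (adjusted p by limma = 0.0316), and their summed normalized counts were 2110.4 to 2957 in shControl and 2804 to 4583 in shOpn3. Among 9 neutrophil markers 6 were tested and 1 was called, Csf3r, the receptor of a granulocyte growth factor that microglia also carry (log2 fold change 1.40, adjusted p by limma = 0.00116). Their sums were 299 to 669 and 478 to 1179. The granule genes Elane, at 0 reads in every sample, and Mpo, at no more than 7.68 normalized counts in any sample, were at or near the floor, and S100a8 ran from 36.7 to 100.2 in shControl and from 15.0 to 115 in shOpn3.

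Of the 3 monocyte markers with a row in the table Plac8 was called (log2 fold change 1.84, adjusted p by limma = 0.00984), with 170 to 379.8 normalized counts in shControl and 307 to 2195 in shOpn3. The sums of this list were 4067 to 4799 and 3496 to 6577. Of 6 B cell markers 4 were tested and 0 were called, 0 also with edgeR, with sums of 22.5 to 104 and 57.9 to 202. Of 5 NK cell markers with a row 3 were tested and Nkg7 was called (log2 fold change 1.09, adjusted p by limma = 0.0374), with sums of 52.0 to 111 and 69.1 to 311 and Gzmb at 0. Klrk1 of this list (adjusted p by limma = 0.0223) and Vcan of the monocyte list, which was lower (0.0397), were called once the block was added. With the block 30.3% of all genes tested were called, against 18.8% without it. In the mast cell list only Kit, which neurons make too, passed the filter (log2 fold change 0.81, adjusted p by limma = 0.000946), and the mast cell proteases Cpa3, Tpsab1 and Cma1 had no more than 3.08 normalized counts in any sample. With such shares, 1 call in a list this short is not a result about its cell type. The part of each cell type in the rise of the 9 transcripts was not tested.

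The kinases and adaptors downstream of the activating receptors rose almost throughout. Of 15 such genes 14 rose, 0 fell, and Dok3 did not pass the test (log2 fold change 0.86), and their median log2 fold change was 1.21. The placing of Dok3 here is open to doubt, as its relatives Dok1 and Dok2 were put in the inhibitory list. Over all genes tested 10.4% were called as higher and 8.48% as lower, the shares to set beside this list and the following ones. Fgr, a Src family kinase of the kind that phosphorylates the activation motif, rose by 1.43 (SE 0.265, adjusted p by limma = 0.00298). Syk, which binds the phosphorylated motif, rose by 0.96 (SE 0.179, adjusted p by limma = 0.00324). Tyrobp, an adaptor with the same kind of motif, rose by 1.33 (SE 0.192, adjusted p by limma = 0.000809), and the adaptor Lat2 by 1.39 (SE 0.276, adjusted p by limma = 0.00452).

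Counterparts on the inhibitory side were divided. Of 7 genes 2 rose, 1 fell and 4 did not pass the test (Dok1, Dok2, Inppl1 and Cblb), with a median of 0.15. A split of this list by the cells that make each gene was not tested. The haematopoietic phosphatases that inhibitory receptors recruit rose, Inpp5d (SHIP1) by 1.08 and Ptpn6 (SHP-1) by 1.26 on the log2 scale (SE 0.182 and 0.237; adjusted p by limma = 0.00177 and 0.00334). Ptpn11 (SHP-2), which is made by most cells, fell by 0.57 on the log2 scale (SE 0.0893, adjusted p by limma = 0.00114).

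Partners of the oxidase were divided as well. Of 12 genes 6 rose, 1 fell (Rap1a, log2 fold change -0.46, named as the exception after its value was seen) and 5 did not pass the test, and the median was 0.53. Hvcn1, the proton channel that balances the charge moved by the oxidase, rose by 1.75 (SE 0.265, adjusted p by limma = 0.000997), with 54.3 to 96.0 normalized counts in shControl and 137 to 376 in shOpn3. The exchange factor Vav1 rose by 1.50 (SE 0.201) and the blood cell GTPase Rac2 by 1.40 (SE 0.284), with adjusted p by limma of 0.000568 and 0.00505. Rac1, the related GTPase made by most cells, had a log2 fold change of -0.03 (SE 0.0659, adjusted p by limma = 0.808) and was picked out after its value was seen. Prkcb of this list rose by 0.59 (SE 0.0878, adjusted p by limma = 0.000903). Arhgdib did not pass (0.46, SE 0.179, adjusted p by limma = 0.0957). Both were also named after their values were seen. Whether the list splits by the cells that make each gene was not tested.

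NADPH oxidases of other cells had few reads. Of 9 genes 3 passed the filter on low values, and Duox1 was called (Nox1 as well once the block was added, adjusted p by limma = 0.0366), at 4.07 to 10.5 normalized counts in shControl and 13.4 to 24.7 in shOpn3 (log2 fold change 1.01, SE 0.306, adjusted p by limma = 0.0364). Nox4, named after its value was seen, had 11.6 to 41.7 normalized counts in shControl and 8.69 to 20.6 in shOpn3, lower in 4 of 5 pairs, and did not pass (-0.81, SE 0.339, adjusted p by limma = 0.122). The call of Duox1 was lost without any of 7 single samples, namely shControl replicates 2, 3 and 4 and shOpn3 replicates 2, 3, 4 and 5 (adjusted p by limma from 0.0528 to 0.0951).

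Of 14 other genes listed as receptors for immunoglobulin or as relatives of these by name, 6 were tested and 2 rose. Fcrl2, of the Fc receptor-like family and with Fcrls among its RefSeq synonyms, had 325 to 704 normalized counts in shControl and 2014 to 4999 in shOpn3. Its log2 fold change of 2.93 (SE 0.268, adjusted p by limma = 0.000122) was larger than that of any of the 9 transcripts. Fcrl2 was listed by family name, and whether its product binds immunoglobulin was not examined here. Trim21, a cytosolic antibody receptor, rose by 0.83 (SE 0.182, adjusted p by limma = 0.00779), with overlap between the groups. The neonatal receptor Fcgrt, which recycles immunoglobulin G, was at 0.04 (SE 0.166, adjusted p by limma = 0.899) and was named after its value was seen.

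For the ligands, 4 of 10 immunoglobulin and plasma cell genes had a row in the table and 3 were tested. Mzb1, a chaperone of antibody-secreting cells, fell by 1.28 on the log2 scale (SE 0.382, adjusted p by limma = 0.0346), from 12.7 to 25.5 normalized counts in shControl to 3.08 to 13.5 in shOpn3, at few reads. It lost the call without any of 6 single samples, namely shControl replicates 1, 2 and 4 and shOpn3 replicates 1, 3 and 5 (adjusted p by limma from 0.0684 to 0.0820). Ighm ran from 105 to 164 and from 98.8 to 552 and did not pass (adjusted p by limma = 0.204). Jchain passed once the block was added (0.64, adjusted p by limma = 0.0263). Ighg1 was at 0 reads in every sample.

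Of 12 genes of the engulfment machinery 8 rose, 0 fell and 4 did not pass the test, with a median of 0.67. Dock2, an exchange factor for Rac in blood cells, rose by 1.64 (SE 0.196), and Myo1f, a myosin of phagocytes, by 1.46 (SE 0.229). Itgam and Itgb2, the chains of complement receptor 3, rose by 1.48 (SE 0.240) and 1.49 (SE 0.207). Their adjusted p by limma ranged from 0.000349 to 0.00141. Without any one of shControl replicates 2, 3 and 4 and shOpn3 replicates 3 and 5, 5 genes of this list were called.

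**Figure D4:**
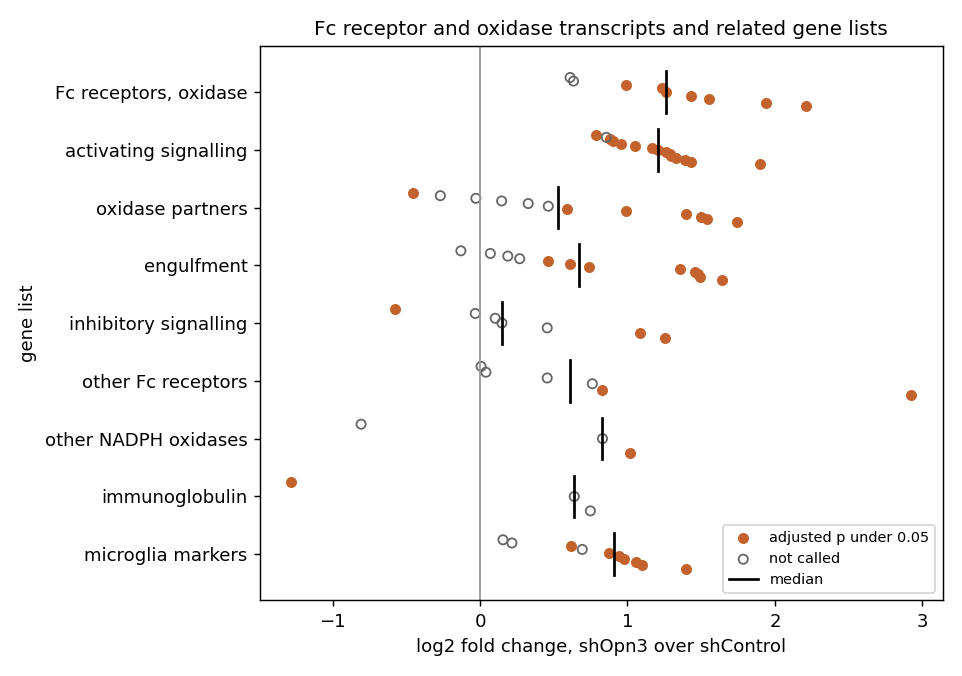
Log2 fold change (x axis, shOpn3 over shControl) of every tested gene of the 9 transcripts, 7 related lists and the microglia markers (rows); filled points have a adjusted p by limma under 0.05, open points do not, and the black line is the median of the list. The activating signalling genes lie around a median of 1.21, near that of the 9 transcripts (1.26), while the inhibitory list has a median of 0.15. Within the inhibitory list Inpp5d (1.08) and Ptpn6 (1.26) lie near the activating median and Ptpn11 (-0.57) lies below 0. The difference between these lists was not tested.

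From 13947 genes compared, the genes whose 5 pair differences lay closest to the mean of the 9 transcripts (0.95, 0.91, 1.71, 1.97 and 1.06 in pairs 1 to 5) were Pik3cg, Myo7a, Nckap1l, Dock8 and Il2rg. Their root mean square differences from it over the 5 pairs were 0.0903, 0.0903, 0.0908, 0.0940 and 0.104 on the log2 scale. Nckap1l, a part of the actin-regulating WAVE complex of blood cells, stood at 1102 ± 71.7 (SD, n = 5) normalized counts in shControl and at 3020.2 ± 1018 (SD, n = 5) in shOpn3, a difference of 1.39 as log2. The log2 fold change was 1.29 for Pik3cg, a phosphoinositide kinase of blood cells, 1.33 for Myo7a, 1.31 for Dock8 and 1.29 for Il2rg. The selection by pair differences fixed the direction and about the size of these values, which are a description.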

How the data were processed

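RNA from single supraoptic nuclei was sequenced in 10 samples, 5 of each group. Per the submitters' processing notes FastQC, STAR, featureCounts and DESeq2 were used; versions, roles, genome build, annotation and strand setting are not given in the sources used here. The table deposited by the authors gives a signal per gene and sample, which are reads divided by 1 size factor per sample: 100% of the values were whole multiples (within 1e-06) of the value of 1 read, so reads were recovered. Per the file headers it also holds the authors' log2 fold change, its standard error, a Wald score, and p-values.

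Genes whose mean normalized count reached 10 were kept, 1 was added before taking log2, and groups were compared with limma 3.58.1 (R 4.3.3, eBayes with trend, group alone, two-sided, Benjamini-Hochberg over all genes tested). Fold changes are on that scale, which understates those of low genes. The fit was also run on simulated counts with 1 dispersion for all genes and no pairing. That run checked the code and does not show how the fit performs on these data. Exact permutation tests of single transcripts were two-sided. Recovered reads were refitted with edgeR 4.0.16 and DESeq2 1.42.0.

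Deviations from the group means correlated across genes in all 5 same-numbered pairs (r from 0.12 to 0.44, median 0.40). Between different numbers r ran from -0.45 to 0.36, with a median of -0.21, so the ranges overlapped. The deviations of each group sum to 0, so positive r at equal numbers pushes r between different numbers below 0. The median of -0.21 is thus partly built in. Each rat had received both hairpins, per the labels' protocols, which do not tie numbers to rats. As every same-numbered correlation exceeded 0.1, the numbers were taken to pair the samples. The highest r between different numbers also exceeded that limit, so the pairing remains an assumption.

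Named genes were the 9 transcripts, Opn3, Rac2, Syk, Tyrobp, up to 4 called genes with the largest change from each of 7 related lists, and the 5 genes most alike in their pair differences; some genes that the rule names are not reported here. Members and lists were chosen with earlier results of these data known. Gene names missing from the table were matched through RefSeq (GRCr8), which gave Dock2. Each nucleus was extracted on its own, per the labels' protocols.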

Additional observations from a re-analysis of the deposited data

Results flagged for a closer look

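Of 70 group values examined, 1 had a sample far from the other 4 of its group, where chance gives about 1 in 20. In shOpn3, replicate 5 had 24.7 normalized counts of Duox1, and the sample below it 15.0. None of the 9 Fc receptor and oxidase transcripts had such a sample.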

How the results depend on the processing

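The 7 calls among the 9 transcripts held in all 21 refits, which changed the pseudocount, filter, scaling, test or block, or left out 1 sample each, and 7 to 9 transcripts were called. Leaving out 1 sample each gave 7 to 8. Of 189 refitted values 183 kept their direction and side of the threshold, 6 gained a call (5 of Fcgr2a, 1 of Cyba, the latter with limma-voom and sample quality weights, adjusted p = 0.00414) and 0 turned. Of 523 values of the other named genes 15 lost the call, 9 of Duox1 and 6 of Mzb1, all in the same direction.

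Over all genes, 2940 were called (1618 higher), 4726 with the replicate block (2350 higher), 4777 with edgeR and the block, and 5085 with limma-voom and quality weights; leaving out 1 sample each gave 1973 to 3057. The cause was not tested. Opn3 ranged from -2.17 to -1.66 and from -2.14 to -1.66 with 1 sample left out. In the related lists 36 genes were called, and 31 to 38 with 1 sample left out.

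Relative to the microglia markers 5 of the 9 were called, 4 to 6 with 1 sample left out and 6 with the replicate block. With all samples, the calls of Ncf4, Fcgr1a and, with the block, Fcgr2b were hardly corrected for the number of genes tested. With Csf1r alone as reference the count was 2, and Cybb, not called in either, turned from 0.19 to -0.063; the cause was not tested. Besides the calls of Fcgr2a and Fcgr2b, the replicate block changed no call among the 9. The part of depth in the calls that changed was not tested.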

Other observations

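Some receptors and oxidase genes were left out of the test for low values. Fcrl5 had 0 to 3.75 normalized counts in shControl and 2.88 to 18.4 in shOpn3, Fcer2, the low-affinity receptor for immunoglobulin E, 1.05 to 12.2 and, in 4 of 5 shOpn3 samples, 4.11 to 5.61 with 35.7 in replicate 4, and Noxa1, an activator of other NADPH oxidases, 0 to 1.05 and 1.06 to 7.19. The genes were chosen after their values were seen.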
